A study of Mus musculus with 2 samples.

Results

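The genes described here are 10 markers of fibroblasts, the cell type on which the embryonic stem cells (ESCs) of this study were grown, with the collagens left out: Acta2, Tagln, Thy1, Lum, Dcn, Postn, Twist1, Twist2, Prrx1 and Pdgfrb. They are members of a list of marker genes by name. Every probe that RefSeq accessions tie to them was read, which gave 11 probes for the 10 genes, out of 55681 probes and 20274 genes with a probe on the array. All 10 genes passed the signal filter that left 16069 genes for the test.

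RNA of mouse ESCs was compared on 2 two-colour Agilent arrays. On both, WT RNA was labelled with Cy3 and RNA of ESCs labelled as HDAC6 overexpression (OE) with Cy5, so no dye swap balances the dyes. Both genotypes were B6C3F1 ESCs at passage 26, kept in serum and LIF on feeders, mouse embryonic fibroblasts that mitomycin C had stopped from dividing. Replicates 1 and 2 are biological per their labels, but the file names give the same WT and OE number to both, so p-values measure only the spread between these 2 arrays, which may be technical. How HDAC6 was overexpressed, whether the OE cells are 1 clone, and whether feeders were removed before RNA extraction are not given in the sources used here.

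Fibroblasts build and remodel connective tissue. They secrete matrix proteins and small proteoglycans, carry receptors for platelet-derived growth factor, and, when activated, assemble actin stress fibres with smooth muscle proteins, a program in which serum response factor binds CArG boxes in promoters. Twist1, Twist2 and Prrx1 are transcription factors of mesenchymal cells. Undifferentiated ESCs, in contrast, grow as compact, epithelial-like colonies. In bulk RNA, more cells of a type and more RNA per cell cannot be told apart.

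RefSeq promoters (assembly GRCm38.p6, 250 bases before the start) were at hand for 5 of the 10 genes. Those of Acta2, Twist1 and Twist2 are shown because Acta2 differed most between the arrays, and because Twist2 passed the test and Twist1 did not. Capitals mark motif matches. In Acta2 (chr19:34255374-34255623, minus strand) they are CArG-like boxes, that is CC, 6 bases of A or T of which up to 1 may be C or G, then GG, and in Twist1 (chr12:33957421-33957670, plus strand) the letters TATAAA. Twist2 lies at chr1:91801211-91801460, plus strand.
Acta2: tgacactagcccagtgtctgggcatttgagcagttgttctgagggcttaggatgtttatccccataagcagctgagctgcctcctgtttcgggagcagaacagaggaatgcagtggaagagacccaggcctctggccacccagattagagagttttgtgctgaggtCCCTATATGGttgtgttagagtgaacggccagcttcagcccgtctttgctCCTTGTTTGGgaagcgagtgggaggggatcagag
Twist1: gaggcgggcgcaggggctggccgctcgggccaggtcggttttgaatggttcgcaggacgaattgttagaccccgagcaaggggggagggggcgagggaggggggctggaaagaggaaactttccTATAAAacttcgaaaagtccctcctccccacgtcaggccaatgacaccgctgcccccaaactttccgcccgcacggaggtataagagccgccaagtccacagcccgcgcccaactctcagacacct
Twist2: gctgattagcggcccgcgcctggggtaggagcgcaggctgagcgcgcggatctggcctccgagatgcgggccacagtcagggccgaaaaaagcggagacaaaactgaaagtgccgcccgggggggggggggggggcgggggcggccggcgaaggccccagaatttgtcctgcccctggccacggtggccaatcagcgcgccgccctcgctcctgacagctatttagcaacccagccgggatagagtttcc

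Acta2 held 2 such CArG-like boxes, starting at -84 and -34 relative to the start, and 0 boxes whose core is only A and T. Over 32851 mouse promoters of the same length, searched on both strands, 8.59% held at least 1 CArG-like box, 0.67% held 2 or more, and 1.47% held a strict one. The Acta2 promoter also had 3 E-boxes (CANNTG), the letters that TWIST proteins bind. At least 1 E-box was found in 66.2% of promoters, and 2 or more in 31.8%. The Twist1 promoter had TATAAA at -126, a match that 12.4% of promoters have, and no E-box. In the Twist2 window none of these motifs was found. A match is a description of letters and not of binding.

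The fibroblast markers were higher in OE than in WT as a group, and more so on the second array. In limma's test of the mean log2 ratio against 0 (Benjamini-Hochberg adjusted p under 0.05), 8 of the 10 rose, 0 fell, and Tagln and Twist1 did not pass, against 21.2% of all genes tested that rose and 29.9% that fell. The median log2 ratio of the 10 genes was 0.76 on replicate 1, 1.49 on replicate 2 and 1.18 over both, beside medians of -0.071, -0.057 and -0.061 over all 16069 genes. The mean ratios ran from 0.061 for Twist1 to 1.52 for Lum. At least a 2-fold rise on both arrays was measured for Thy1, Lum, Prrx1 and Pdgfrb, 4 of 10 against 3.03% of all genes. With either normexp setting this count was 3 of 10. The ratio was above 0 on both arrays for 9 of 10, against 37.2% of all genes.

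**Figure D1:**
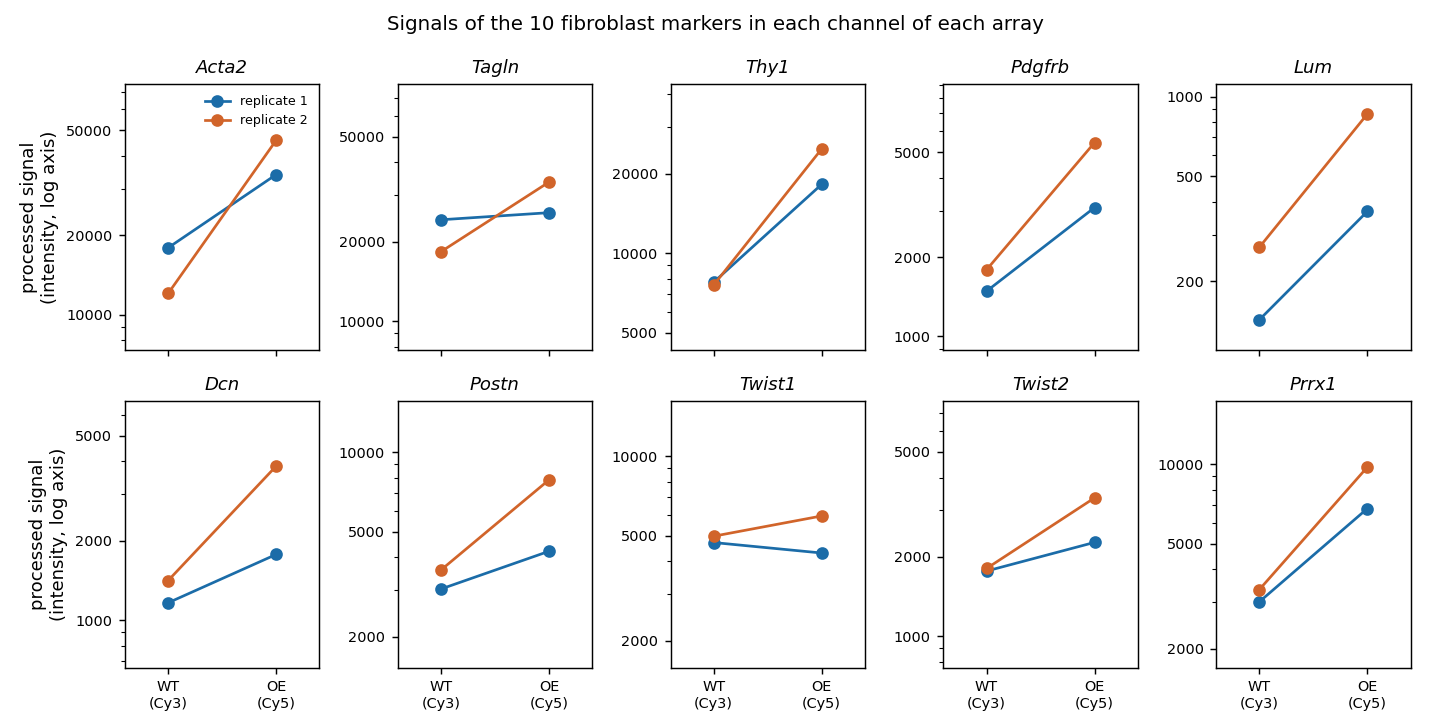
Processed signal (intensity, log axis) of each fibroblast marker in the WT (Cy3) and OE (Cy5) channel, with 1 line per array and each gene on its own axis range. The OE signal of replicate 2 is above that of replicate 1 in 10 of 10 genes, while the WT signal of Acta2, Tagln and Thy1 is lower in replicate 2.

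Acta2 and Tagln encode parts of the contractile apparatus, smooth muscle alpha-actin and the actin-binding protein transgelin. Acta2 had processed signals of 17924 in WT and 33947 in OE on replicate 1, and of 12030 and 45764 on replicate 2. OE was above WT on both arrays, the channels did not overlap, and the gap was wider on the second. The log2 ratio was 0.92 and 1.93, a mean of 1.42 ± 0.71 (SD, n = 2) or 2.68-fold (limma adjusted p = 0.0047). With normexp background and median centring, a setting that also lifted other bright genes such as Nanog and Pou5f1, the mean was 2.14.

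The Acta2 probe (A_52_P420504) was printed 10 times on each array, which separates spot error from the difference between arrays. Spot ratios ran from 0.80 to 1.01 (log2) on replicate 1 and from 1.76 to 2.08 on replicate 2. The spots of the arrays did not overlap, and their SD within an array was 0.060 and 0.12, so the difference of 1.01 between the arrays was far larger than the spot spread. Spots of one array share its RNA and are no replicates of the condition. Actin genes are close in sequence, and cross-hybridisation of the Acta2 probe was not tested.

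Tagln had signals of 24203 in WT and 25748 in OE on replicate 1, and of 18314 and 33611 on replicate 2. On replicate 1 the channels were nearly level, and only on replicate 2 did OE stand clearly above WT. Its log2 ratio was 0.089 and 0.88, a mean of 0.48 ± 0.56 (SD, n = 2), and did not pass (limma adjusted p = 0.080, 95% confidence interval 0.013 to 0.95 before adjustment). The authors' deposited table gives this gene an error-model p of 0.662 on the first array and of 6.43e-05 on the second, each a statement on 1 array. Other normalizations ended in a call: the mean was 0.58 (limma adjusted p = 0.0070) with normexp background and loess, and 1.23 (limma adjusted p = 1.35e-05) with normexp and median centring. The latter setting also lifted other bright genes, Nanog from -0.29 to 0.92 and Pou5f1 from 0.22 to 1.06. The higher value is thus not particular to Tagln.

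Thy1 and Pdgfrb encode cell surface proteins, the anchored glycoprotein Thy-1 (CD90) and the beta receptor for platelet-derived growth factor. Thy1 had signals of 7763 in WT and 18231 in OE on replicate 1, and of 7575 and 24832 on replicate 2. WT was almost the same on both arrays and OE was higher on the second. The log2 ratio was 1.23 and 1.71, a mean of 1.47 ± 0.34 (SD, n = 2) or 2.77-fold (limma adjusted p = 0.00083). Pdgfrb had 1484 in WT and 3079 in OE on replicate 1, and 1790 and 5426 on replicate 2. Both channels were brighter on the second array, OE more so. Its log2 ratio was 1.05 and 1.60, a mean of 1.33 ± 0.39 (SD, n = 2) or 2.51-fold (limma adjusted p = 0.0013).

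Lum, Dcn and Postn encode secreted matrix proteins: lumican and decorin are small leucine-rich proteoglycans that bind collagen fibrils, and periostin is a matricellular protein. Lum had signals of 143 in WT and 367 in OE on replicate 1, and of 269 and 858 on replicate 2, well above background in all 4 channels. Its OE signal was more than 2-fold above WT on both arrays, and both channels were brighter on the second array, WT 1.88-fold and OE 2.34-fold. The log2 ratio was 1.36 and 1.68, the smallest difference between the arrays among the 10 genes, and its mean of 1.52 ± 0.22 (SD, n = 2) was 2.87-fold (limma adjusted p = 0.00045). The mean of Lum was lower with normexp background, at 1.18 with loess and 1.12 with median centring.

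Dcn had signals of 1163 in WT and 1773 in OE on replicate 1, and of 1412 and 3830 on replicate 2. OE exceeded WT on both arrays and more than doubled from the first array to the second. The log2 ratio was 0.61 and 1.44, a mean of 1.02 ± 0.59 (SD, n = 2) or 2.03-fold (limma adjusted p = 0.0086). Postn had 3031 in WT and 4213 in OE on replicate 1, and 3577 and 7852 on replicate 2. Again OE was above WT on both, with the larger gap on the second. Its log2 ratio was 0.47 and 1.13, a mean of 0.80 ± 0.47 (SD, n = 2) or 1.75-fold (limma adjusted p = 0.011).

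Dcn and Lum are neighbours on mouse chromosome 10, in RefSeq's order of protein-coding genes. On their far sides lie Btg1 (mean log2 ratio -0.061 ± 0.068, SD, n = 2, limma adjusted p = 0.60) and, past Kera, Epyc and Ccer1, the calcium pump gene Atp2b1, which fell by 0.36 ± 0.047 (SD, n = 2, limma adjusted p = 0.022). Kera and Epyc, proteoglycan genes of the same cluster, were not above background in any of the 4 channels, nor was Ccer1. The higher ratios at this place were thus measured for Dcn and Lum and for none of the other measured genes named. Beyond Btg1, the endosomal gene Eea1 fell by 0.58 ± 0.076 (SD, n = 2, limma adjusted p = 0.0045), and Gm46240, between Btg1 and Dcn, was not analysed here.

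Of the transcription factors, Twist2 and Prrx1 rose and Twist1 did not pass. Twist1 had signals of 4713 in WT and 4301 in OE on replicate 1, and of 4981 and 5943 on replicate 2. OE was below WT on the first array and above it on the second, so the arrays disagreed in sign. The log2 ratio was -0.13 and 0.25, a mean of 0.061 ± 0.27 (SD, n = 2), with limma adjusted p = 0.69 and a 95% confidence interval of -0.24 to 0.36. Twist2 had 1769 in WT and 2271 in OE on replicate 1, and 1809 and 3348 on replicate 2. OE was higher on both arrays, and WT was nearly level. Its log2 ratio was 0.36 and 0.89, a mean of 0.62 ± 0.37 (SD, n = 2) or 1.54-fold (limma adjusted p = 0.015). The difference between Twist1 and Twist2 was not tested.

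Prrx1, a paired-related homeobox factor of limb and skin mesenchyme, was the one gene with more than 1 probe. Its brighter probe (A_55_P2131920, transcript NM_175686) had 3011 in WT and 6791 in OE on replicate 1, and 3349 and 9750 on replicate 2. Its other probe (A_55_P2131915, NM_001025570) had 516 and 1139, then 705 and 2035. Both probes showed OE above WT by over 2-fold on both arrays. The log2 ratios were 1.17 and 1.54 for the first, a mean of 1.36 ± 0.26 (SD, n = 2, limma adjusted p = 0.00071), and 1.14 and 1.53 for the second, a mean of 1.34 ± 0.27 (SD, n = 2, limma adjusted p = 0.0011 in the fit over 38393 probes, of which 23.1% were higher in OE). The probes thus gave nearly the same ratio on each array.

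**Figure D2:**
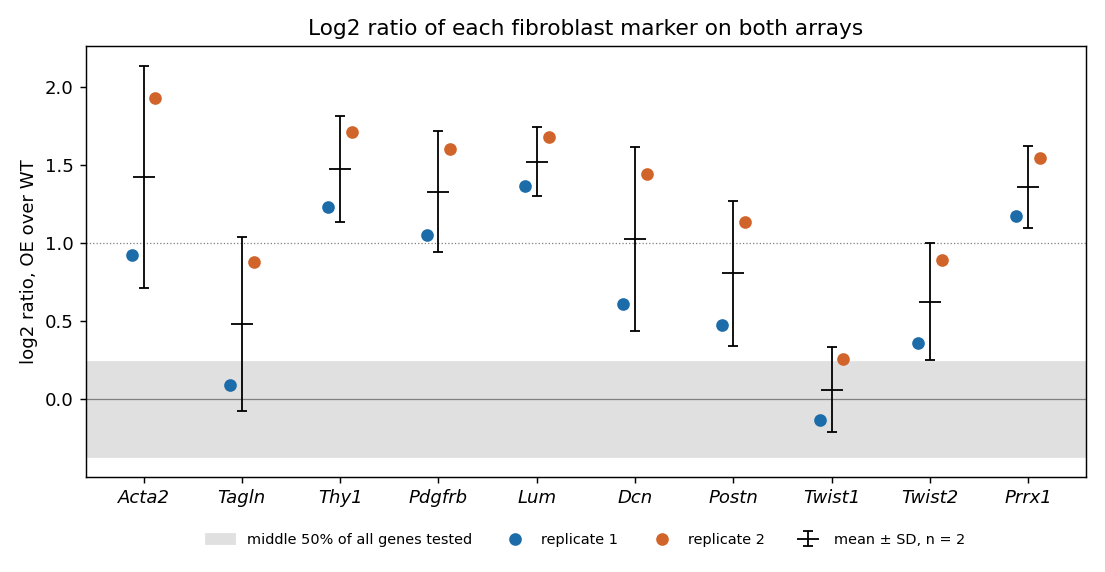
Log2 ratio of OE over WT for each fibroblast marker on replicate 1 and replicate 2, with the mean and SD (n = 2), the middle 50% of all genes tested in grey and a dotted line at a 2-fold rise. The replicate 2 point lies above the replicate 1 point for 10 of 10 genes, and 7 of them pass 2-fold on replicate 2 against 4 on replicate 1.

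The arrays differed in how far these genes rose. The ratio was higher on replicate 2 for 10 of 10 genes, by 0.31 for Lum to 1.01 for Acta2 with a median of 0.54 (log2). Over all genes the median difference was -0.0026 with an SD of 0.27, 49.6% had a higher ratio on replicate 2, and 12.1% had one higher by at least 0.3, as 10 of the 10 markers did. Acta2 exceeded 99.5% of all genes in this difference, Dcn 98.9% and Tagln 98.7%, and Lum, with the smallest, 88.8%. With 1 pair of channels per array, the difference has no error of its own and was not tested.

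The count past 2-fold followed the array. On replicate 1, 4 genes were at least 2-fold higher (3.52% of all genes), and on replicate 2, 7 were (5.56% of all genes), Acta2, Dcn and Postn being the 3 that joined. The OE signal was higher on replicate 2 for 10 of 10 genes, with a median shift of 0.54 (log2) against 0.12 over all genes. The WT signal shifted by a median of 0.12, as for all genes (0.12), and was higher on replicate 2 for 7 genes. For Acta2 it was 0.671 times and for Tagln 0.757 times that of replicate 1, so the WT channel differed between the arrays for these contractile genes too. Over all genes, 78.4% had a higher WT signal and 78.8% a higher OE signal on replicate 2. How many feeder cells each RNA came from was not analysed here, and its part in these ratios was not tested.

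**Figure D3:**
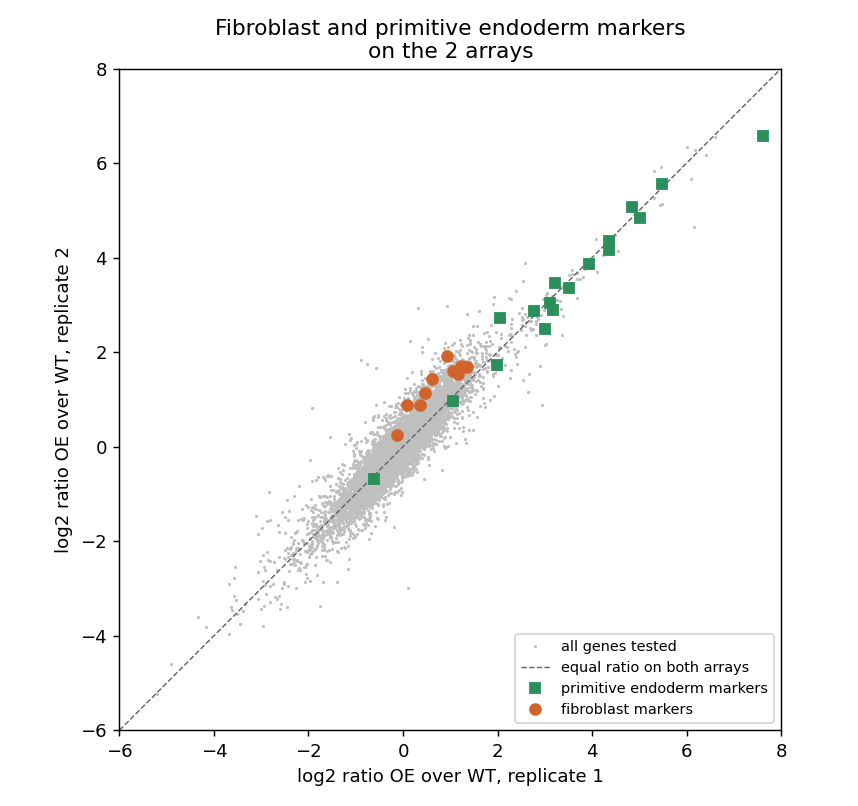
Log2 ratio of OE over WT on replicate 1 (horizontal) and replicate 2 (vertical) for 16069 genes, with the 10 fibroblast markers and 17 primitive endoderm markers marked. The fibroblast markers all lie above the line of equal ratios, and 5 of the 17 primitive endoderm markers do.

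Genes of the same processes, taken from lists by name, are given by the same counts. Of 18 measured genes of the contractile apparatus and its transcription regulators, 10 rose and 1 fell, beside 21.2% and 29.9% of all genes. The 1 that fell was the tropomyosin gene Tpm1, at -0.51. The direction of Tpm1 turned with the probe and the scaling: its other probes gave -0.51 to 0.58, and the same probe 0.11 with normexp and median centring. Gamma smooth muscle actin, Actg2, had log2 ratios of 0.87 and 1.76, a mean of 1.32 ± 0.63 (SD, n = 2, limma adjusted p = 0.0043), and the light chain gene Myl9 had 0.54 and 1.26 (mean 0.90 ± 0.51, SD, n = 2, limma adjusted p = 0.0090). The actin-filament gene Lmod1 had 0.85 and 1.24 (mean 1.04 ± 0.27, SD, n = 2, limma adjusted p = 0.0016). The mean of Lmod1 was 0.56 with normexp and loess, and that of Myl9 1.49 with normexp and median centring. As for Acta2, the ratios of Actg2, Myl9 and Lmod1 were higher on replicate 2, as were 13 of the 18, against 49.6% of all genes.

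Most measured matrix genes rose, beside 21.2% of all genes that rose and 29.9% that fell. Among 8 measured small leucine-rich proteoglycans, 6 rose and 1 fell, with a median log2 ratio of 1.03. Fibromodulin, Fmod, had a mean of 1.63 ± 0.33 (SD, n = 2, limma adjusted p = 0.00059), Bgn (biglycan) 1.43 ± 0.43 (SD, n = 2, limma adjusted p = 0.0013) and Ogn (osteoglycin) 1.13 ± 0.12 (SD, n = 2, limma adjusted p = 0.00066). Of 24 matricellular and elastic fibre genes, 19 rose and 0 fell, with a median of 0.89. With normexp and loess 19 rose and 1 fell. Sparc, which rose, is counted here and among the primitive endoderm markers. The fibulins Fbln2 (1.47 ± 0.41, SD, n = 2) and Fbln5 (1.37 ± 0.44, SD, n = 2) and the thrombospondin Thbs1 (1.31 ± 0.48, SD, n = 2) led, with limma adjusted p of 0.0011, 0.0016 and 0.0022. The ratio was higher on replicate 2 for 7 of the 8 and 21 of the 24, against 49.6% of all genes.

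Of 18 measured mesenchymal transcription factors, 10 rose and 3 fell, beside 21.2% and 29.9% of all genes. Osr1 (mean log2 ratio 1.56 ± 0.23, SD, n = 2, limma adjusted p = 0.00044) and Tbx15 (1.43 ± 0.24, SD, n = 2, limma adjusted p = 0.00056) were among those that rose. For 17 of the 18 the ratio was higher on replicate 2, against 49.6% of all genes.

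Around the receptor Pdgfrb, 7 of 12 genes for PDGF and TGF-beta ligands and receptors rose and 1 fell, the ligand gene Pdgfb. Over all genes 21.2% rose and 29.9% fell. Pdgfra, the alpha receptor, had a mean log2 ratio of 2.75 ± 0.36 (SD, n = 2, limma adjusted p = 0.00016). It is a marker of primitive endoderm as well as of fibroblasts, and its ratio was lower on replicate 2 (2.50) than on replicate 1 (3.0), unlike that of Pdgfrb. The ligand genes Pdgfc (1.31 ± 0.20, SD, n = 2, limma adjusted p = 0.00062) and Tgfb3 (1.18 ± 0.46, SD, n = 2, limma adjusted p = 0.0028) rose. Of 13 stromal markers, most but not all of them surface proteins like Thy1, 9 rose and 1 fell (Cd34, at -1.17, with 0.37 from its other probe). The largest rises were those of S100a4, which is not a surface protein (1.68 ± 0.25, SD, n = 2, limma adjusted p = 0.00040), Vcam1 (1.49 ± 0.20, SD, n = 2, limma adjusted p = 0.00045) and Cd44 (1.46 ± 0.31, SD, n = 2, limma adjusted p = 0.00074). Other probes of Cd44 gave 0.42 to 1.36. The ratio was higher on replicate 2 for 9 of the 12 and 12 of the 13, against 49.6% of all genes.

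Several of the markers are also made by cells other than fibroblasts. Of 6 measured pericyte and mature smooth muscle markers, 2 rose and 2 fell, beside 21.2% and 29.9% of all genes, with a median log2 ratio of -0.015, and Rgs5 and Abcc9 were not above background. The smooth muscle myosin gene Myh11 had 0.40 and 1.99 (mean 1.19 ± 1.13, SD, n = 2, limma adjusted p = 0.034), Cspg4 0.76 ± 0.29 (SD, n = 2, limma adjusted p = 0.0049), and Notch3 fell by 0.42 ± 0.12 (SD, n = 2, limma adjusted p = 0.015, and -0.16 with normexp and median centring). Myh11 showed the same lean to replicate 2 as Acta2. Of 7 endothelial markers 2 rose and 5 fell, Cldn5 by 1.87 and Kdr by 1.1 (another probe of Kdr gave -0.04), while Cdh5 rose by 1.06 (0.67 with normexp and loess). Of 7 neuronal markers 0 rose and 3 fell, Syt1 by 1.84, Tubb3 by 0.94 and Rbfox3 by 0.84, and of 5 measured blood and T cell markers 1 rose, near the 21.2% of all genes: Csf1r, by 1.23, with other probes at 1.1 and 0.40. Itgam and Cd4 had 0.13 and 0.18 and did not pass (1.1 and 0.10 with normexp and median centring).

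Primitive endoderm, an early extra-embryonic lineage, had the highest median ratio among the lists: 16 of 17 markers rose and 1 fell (Afp, by 0.65, or -0.30 with either normexp setting), with a median log2 ratio of 3.34. Over all genes 21.2% rose and 29.9% fell. Cubn, an endocytic receptor, had 5.48 and 5.55 and Gata4, a lineage factor, 4.84 and 5.08. Ttr rose as well, but was not well above background in WT, so no fold is given. In this list the ratio was higher on replicate 2 for 5 of 17 genes, with a median difference of -0.080, against 10 of 10 and 0.54 for the fibroblast markers. Primitive endoderm markers were thus higher in OE together with the fibroblast markers, without the higher ratio on replicate 2, and their part in the fibroblast ratios was not tested.

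**Figure D4:**
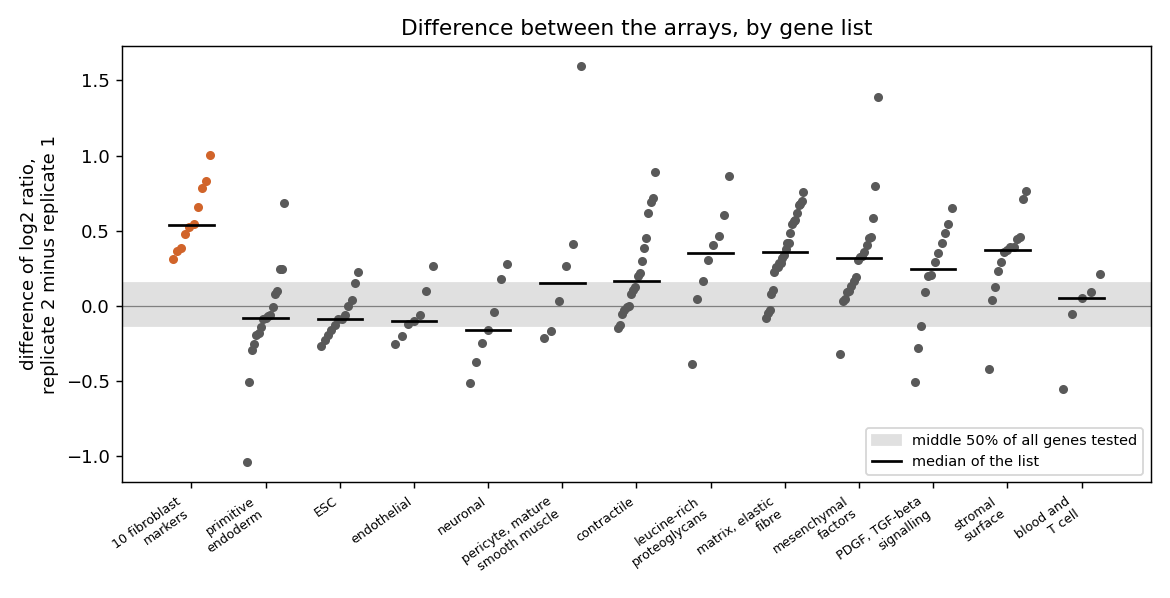
Difference of the log2 ratio between the arrays (replicate 2 minus replicate 1) for the 10 fibroblast markers and for each list of other genes, with a bar at the median and the middle 50% of all genes tested in grey. The fibroblast markers lie between 0.31 and 1.01, and the primitive endoderm list has its median at -0.080.

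The cells and arrays were checked as follows. Of 12 ESC markers 3 rose and 4 fell, near the 21.2% and 29.9% of all genes. Pou5f1 had a mean log2 ratio of 0.22 ± 0.16 (SD, n = 2, limma adjusted p = 0.12) and Sox2 0.18 ± 0.090 (SD, n = 2, limma adjusted p = 0.15), while Nanog fell by 0.29, Tdgf1 by 1.11 and Dppa5a by 0.53, and Esrrb rose by 0.73. Nanog turned direction with the scaling, at -0.044 with normexp and loess and 0.92 with normexp and median centring. With the latter, Pou5f1 was at 1.06, Sox2 at 0.59, Tdgf1 at -0.15 and Esrrb at 1.23. The brighter Hdac6 probe had signals of 16389 in WT and 18275 in OE on replicate 1 and of 17806 and 17344 on replicate 2. Its mean log2 ratio was 0.060 ± 0.14 (SD, n = 2, limma adjusted p = 0.64) and did not pass, and the mean was 0.52 with normexp and median centring. The other Hdac6 probe had log2 ratios of 0.18 and -0.0055 and did not pass either. Its mean was 0.089 ± 0.13 (SD, n = 2, limma adjusted p = 0.52 in the fit over probes), or 0.50 with normexp and median centring. Whether either probe lies in the overexpressed sequence is not known. Between 68.1% and 68.8% of probes were well above background in each channel, and the ratios of the arrays had Pearson's r = 0.924 across genes, which are not independent replicates.

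**Figure D5:**
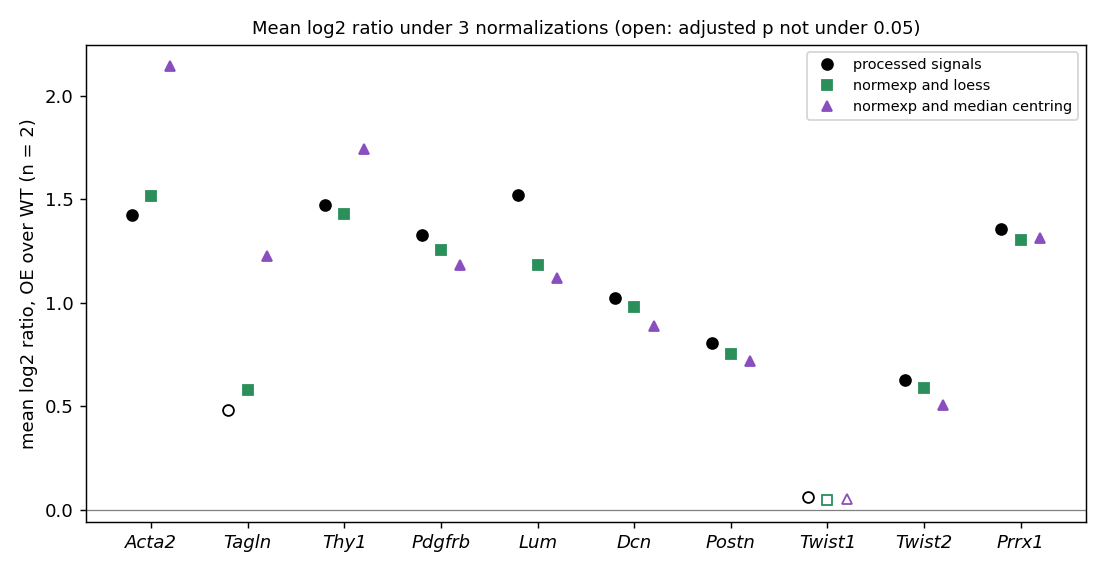
Mean log2 ratio of OE over WT (n = 2) of each fibroblast marker from the scanner's processed signals, from normexp background with loess, and from normexp background with median centring, with open symbols where limma's adjusted p was not under 0.05. Tagln passes under both normexp settings, Twist1 under none of the 3, and the other 8 genes under all 3.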

How the data were processed

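Scanner output came from Agilent Feature Extraction 11.5.1.1 with a grid built on mm9, per the file headers. The deposited processed intensity values had their background subtracted and their dyes normalized by a linear and a lowess step, per the file headers. Beside them the deposited files hold raw median intensities, a log10 ratio and an error-model p-value. The authors' series table holds log2 values, which were WT over OE when set against the scanner ratios (r = -1 on both arrays). Its column medians were -0.0074 and 0.062. With the sign turned, its medians over the genes tested were -0.071 and -0.057, the same as those of the scanner ratios. It was thus not centred beyond them.

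From the processed signals, log2 of Cy5 over Cy3 was taken per spot, outlier-marked spots (269 and 313, 0 of them of the fibroblast markers) were left out, and spots of a probe were averaged. Symbols came from RefSeq accessions, with 26762 probes matched to 1 symbol, 0 to several and 28919 to none. The brightest probe stood for a gene, kept if Cy3, or Cy5, was well above background on the 2 arrays. No spot was saturated. The ratio was tested against 0, two-sided, with limma 3.58.1 in R 4.3.3 (lmFit, eBayes, prior df 4.6, residual df 1) and Benjamini-Hochberg adjustment over 16069 genes. The precision is limited by the number of arrays, 2. Both arrays lie on 1 slide, so there is no batch to test.

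On simulated data with 200 changed genes of 16069, this comparison recovered 13.9% of those changed by 0.5, 96.0% by 1 and 99.9% by 2 (log2), with a median of 6.44% false calls. In the data themselves 3413 genes rose and 4807 fell, many more than were changed in the simulation. Its shares therefore hold for the simulated setting only. From each list of other genes the 3 with the largest ratio past the threshold were named, or the brightest where fewer passed, plus Pou5f1, Nanog and Sox2. A result that this rule would name is not reported here. Genes outside this rule (Tpm1, Pdgfb, Cd34, Afp, Sparc and the neighbours of Dcn and Lum) were named after their values were seen. The members and lists were chosen with earlier results of these data known.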

Additional observations from a re-analysis of the deposited data

How the results depend on the processing

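With 7 other ways of making the values (2 normalizations, the authors' series table, 2 filters, outlier spots kept, a mean over probes), 8 fibroblast markers rose with 5 of them and 9 with the 2 normexp settings, where Tagln joined at 0.58 and 1.23. In every one of the 7 the ratio was higher on replicate 2 for 10 of 10 genes. The 5 settings without normexp keep the marker ratios as they were, apart from Prrx1 in the mean over probes. For this count they could therefore not differ, and only the 2 normexp settings give other ratios. At least 2-fold higher on both arrays were 3 markers with each normexp setting, against 4 with the processed signals. Of all 16069 genes, 288 were with loess and 509 with median centring. Leaving out 1 array moved the count at least 2-fold higher from 4 to between 4 (without replicate 2) and 7 (without replicate 1), and the median log2 ratio to 0.76 or 1.49. Over all genes the count that rose was 3413, and 4878 with normexp background and median centring, and the count that fell was 4807, or 5542 with normexp background and loess. Both settings change the background correction and the dye normalization together, and median centring also lifted bright genes such as Nanog and Pou5f1. Dye and genotype cannot be told apart on arrays of one orientation. The test of the ratio already pairs WT and OE on each array. A further block for the replicate number was not possible, because there is only 1 ratio per array. On simulated data of 2 arrays, changes of about 0.5 (log2) were mostly not recovered. Far fewer genes were changed in the simulation than passed in the data themselves. This result therefore holds for the simulated setting only and gives no limit for the genes measured here.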
